A study of Drosophila melanogaster with 24 samples.

Results

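The genes described here are the metallothioneins and the iron-handling genes of the fly head: *MtnA*, *MtnB*, *MtnC*, *MtnD*, *MtnE*, *Tsf1*, *Tsf3*, *Fer1HCH*, *Fer2LCH* and *Mvl*. They were taken by symbol from the gene tables, for metal binding and for iron transport or storage, and make up 10 of 13700 annotated genes listed in at least 1 library. The main pattern over age was that *Tsf1* rose in both genotypes, about 3.11-fold in WT and 5.10-fold in AD heads between day 3 and day 30. Among the libraries processed together with those of day 30 the rises were 2.69-fold and 4.43-fold. The difference between the genotypes in this rise did not pass the threshold. Both AD values include replicate 3 of day 30, which had the highest *Tsf1* level of the series. Its level of the eye pigment gene *w* was in the WT range. No tested member passed the threshold between AD and WT heads at any age, where 0.0191% to 0.172% of all tested genes did. *MtnD*, a scarce gene below the filter on low counts, was listed in 12 of 12 AD libraries, with 1 to 11 counts. It was listed in 6 of 12 WT libraries, with at most 7 counts. A library at 0 allows up to 3 counts, so listing alone does not separate the genotypes. Without the filter its difference over the 4 ages did not pass in edgeR (false discovery rate of 0.0854).

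Poly(A) RNA from pooled heads of male *Drosophila melanogaster* was sequenced on day 3, day 10, day 20 and day 30 after eclosion, with 3 replicates for each genotype and age and 24 libraries in all. AD flies carried a UAS transgene for the human Aβ42 peptide in the w1118 background, driven by the elav-GAL4 c155 line, which is active in neurons. The GEO labels call these flies hAPP transgenic. WT flies were w1118 flies crossed to the same driver, so both genotypes carried elav-GAL4 c155 and the transgene separated them. Each library is a pool of whole heads, in which neurons, glia, eye, fat body and blood cells all contribute RNA. Fewer cells of a type and less RNA per cell cannot be told apart in such bulk samples. Nothing in the labels ties the replicates to separate crosses, so p-values measure the spread between these pools, which may be partly technical.

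Metallothioneins are small cysteine-rich proteins that bind copper, zinc and cadmium, and in flies the metal-responsive factor MTF-1 drives their transcription. Iron in the fly travels in the hemolymph bound to transferrin 1, is stored in secreted ferritin built from heavy and light chain homologues, and enters cells through divalent metal transporters such as Malvolio. Iron and copper both take part in redox chemistry, so these proteins are studied together in aging and in models of neurodegeneration.

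All but a pair of the members lie on chromosome arm 3R (release 6 genome, Ensembl annotation). *MtnE* (3R, 20534021 to 20534704) and *MtnD* (3R, 20534962 to 20535301) are neighbours separated by 257 bases, with *MtnB* at 20503102 to 20503746, *MtnC* at 20360308 to 20360634 and *MtnA* farther away at 9783407 to 9784370 on the same arm. The ferritin genes *Fer1HCH* (30385573 to 30388178) and *Fer2LCH* (30387804 to 30390584) overlap by 375 bases on opposite strands. *Mvl* spans 21051383 to 21060800. *Tsf1* lies on the X chromosome at 18387084 to 18390344, and *Tsf3* on 2R at 16226501 to 16229869, wholly inside *CG15706* on the opposite strand. Strand use in the counting is not given in the sources used here, so reads in these overlaps could belong to either gene.

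Levels between genes were compared in FPKM, which divides by gene length. *MtnA* had the highest median FPKM, 2710 over 24 libraries, ahead of *Tsf1* with 1417, *Fer1HCH* with 716 and *Fer2LCH* with 634. *Mvl* followed with a median FPKM of 32.6 and *Tsf3* with 9.07. The other metallothioneins were scarce, with median FPKM of 4.24 for *MtnE*, 2.74 for *MtnB* and 0.96 for *MtnD*, and *MtnC* was listed in only 2 libraries. The filter on low counts was passed by 8 of 10 members, all but *MtnC* and *MtnD*.

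Total counts ran from 12884945 to 26731357 per library. The 6 libraries of replicate 1 at days 3, 10 and 20 were deeper, from 21168175 to 26731357, and the lengths given for unannotated genes showed that they were processed separately from the other 18, which held 12884945 to 16237611. Day 30 was therefore present in the second processing run only. Levels of 1 gene across libraries are given as CPM, the usual depth-scaled count, computed on TMM-adjusted library sizes. In 4 libraries a check gene or marker list stood apart. The eye pigment gene *w*, carried by many transgenes as a marker, was at 64.1 to 107 CPM in WT and 180 to 256 CPM in 11 AD libraries, but at 89.7 CPM in the library labelled AD day 30 replicate 3. The female yolk gene *Yp1* reached 38.3 CPM in WT day 3 replicate 2, against 0.521 to 15.8 CPM elsewhere. The summed CPM of 8 gut proteases was 585 in AD day 3 replicate 2 and 127 in WT day 3 replicate 1, with a maximum of 2.09 in the others, and 5 testis genes summed to 170 CPM in WT day 3 replicate 1. A call required a Benjamini-Hochberg false discovery rate (FDR) under 0.05 and an absolute log2 fold change over 1 in edgeR's quasi-likelihood test.

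*Tsf1*, which encodes the iron carrier of the hemolymph and is made largely by the fat body, was the member called with age. In WT heads its level was 780.4, 1036 and 1602 CPM at day 3 in replicates 1, 2 and 3, and 3869, 2199.5 and 2122 CPM at day 10. It was 4181, 2689.6 and 2349 CPM at day 20 and 3757, 3227 and 3655 CPM at day 30. All 9 older WT libraries lay above all 3 at day 3. In AD heads *Tsf1* was at 658, 844 and 1339 CPM at day 3 and at 3399.8, 1975 and 1915 CPM at day 10. It reached 3790.3, 3209 and 2933 CPM at day 20 and 4499, 3894 and 6098 CPM at day 30. Every older AD library again exceeded those of day 3, and the day 30 libraries lay above those of day 20.

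**Figure D1:**
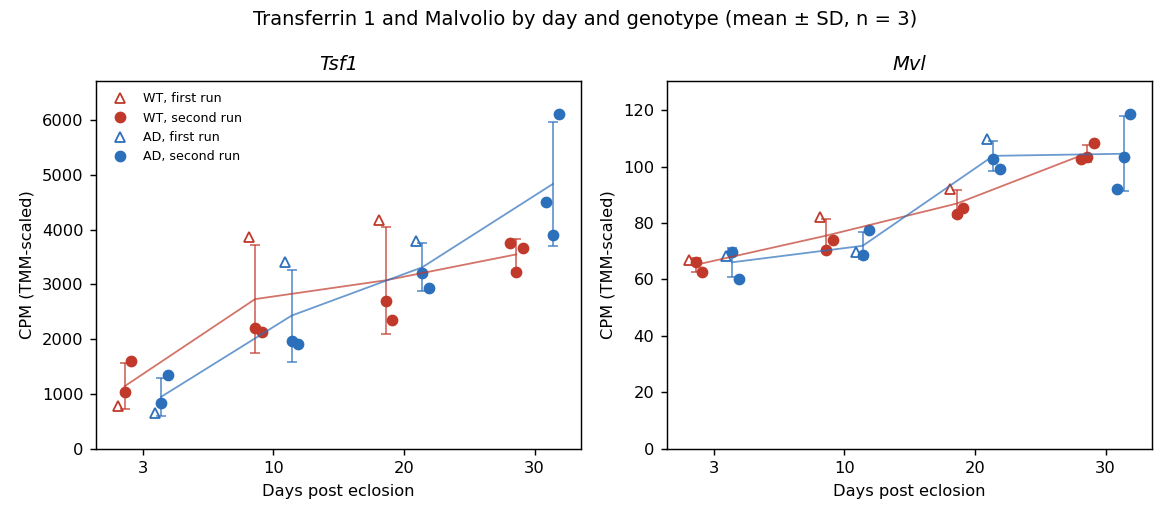
*Tsf1* (left) and *Mvl* (right) in CPM on linear axes against days post eclosion, 1 point per library, WT in red and AD in blue, open triangles for the first processing run and filled circles for the second; lines join group means and bars are SD (n = 3). *Tsf1* lies between 658 and 1602 CPM at day 3 and between 3227 and 6098 CPM at day 30, while *Mvl* moves from 60.3 to 69.7 CPM at day 3 to 91.9 to 118 CPM at day 30.

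The fitted change of *Tsf1* from day 3 to day 30 was a log2 fold change of 1.64 ± 0.33 (SE; edgeR FDR = 0.00332) in WT and 2.35 ± 0.34 (edgeR FDR = 9.03e-05) in AD heads. *Tsf1* was the 1 member of 8 tested that was called in each of these comparisons, against 4.49% of all tested genes called in WT and 7.68% in AD. At day 20 it was 1.43 ± 0.33 higher in WT (edgeR FDR = 0.0131), again the 1 member called beside 2.33% of all genes, and 1.81 ± 0.33 higher in AD (edgeR FDR = 0.00138), beside 5.44%. At day 10 the AD change of 1.36 ± 0.33 was called (edgeR FDR = 0.0302), beside 1.21% of all genes. The WT change at day 10, 1.26 ± 0.33, was not (edgeR FDR = 0.0680), and 0 of 8 members were called there beside 0.563% of all genes. In that WT comparison 2 of 8 members had an unadjusted p under 0.05, as had 1682 of all 10479 tested genes. DESeq2 called 1 member there, *Tsf1*, and 205 of all 10479 genes.

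The size of the *Tsf1* change depended on the processing run. In the first run, with 1 library per genotype and age, day 10 was 4.96 times day 3 in WT and 5.16 times in AD. In the second run, with 2 libraries per group, the same ratios were 1.64 in WT and 1.78 in AD. At day 20 the ratios were 5.36 and 1.91 in WT, and 5.76 and 2.81 in AD, for the first and the second run. The direction was the same in both runs and both genotypes. Within the second run alone day 30 was 2.69 times day 3 in WT and 4.43 times in AD, and both changes were called (log2 fold changes of 1.43 and 2.12 for *Tsf1*).

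Without all 4 libraries that stood apart, the *Tsf1* change from day 3 to day 30 was 2.05 in AD but 1.15 in WT, where it was no longer called. WT day 3 then held 1 library, replicate 3, which had the highest *Tsf1* level of its group and was assumed to vary like the other groups. Calls in this WT comparison also became rarer among all genes. Leaving out any single library kept the *Tsf1* call at day 30 in both genotypes. The log2 fold changes then ran from 1.43 to 1.97 in WT and from 2.12 to 2.67 in AD. The WT call at day 20 was lost without WT day 3 replicate 1 (1.22, edgeR FDR = 0.0750), WT day 3 replicate 2 (1.39, FDR = 0.0588) or WT day 20 replicate 1 (1.16, FDR = 0.0809). The AD call at day 10 was lost without AD day 3 replicate 1 or 2, or without any of the 3 AD day 10 libraries, with log2 fold changes of 1.04 to 1.48 for *Tsf1*.

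Marker genes of other cell types were summed beside *Tsf1*. The summed level of 5 fat body genes was 2135 to 3659 CPM at day 3 and 2179 to 2751 CPM at day 30 in WT, and 2474 to 3589 CPM and 2461 to 3747 CPM in AD, so that the ages overlapped. Its highest values, 6825 and 5725 CPM, were in replicate 1 of day 10 in WT and AD. In every group of genotype and age except AD day 20, the library with the highest fat body sum also had the highest *Tsf1* level. At AD day 20 the highest sum, 3542 CPM, was in replicate 2 and the highest *Tsf1* level in replicate 1. The 5 blood cell genes summed to 86.3 to 150.2 CPM at day 3 and 83.2 to 141 CPM at day 30 in WT. In AD they summed to 57.0 to 188 CPM and 144 to 149 CPM. The upper ends at day 3 were libraries of the first run. Within the second run the AD blood cell sums were 94.8 and 57.0 CPM at day 3, 59.8 and 67.4 CPM at day 10, 67.8 and 107 CPM at day 20, and 144, 147 and 149 CPM at day 30. Blood cell sums and *Tsf1* were thus both higher at day 30 than at day 3 without overlap in AD heads of that run, while the WT sums of that run overlapped between the ages. The 3 glial genes were lower at day 30 than at day 3 without overlap, at 504 to 600.2 CPM against 838 to 1093 CPM in WT and 436 to 571 CPM against 854 to 1091 CPM in AD. The 4 neuronal genes were also lower at day 30 without overlap, at 2018 to 2146 CPM against 2205 to 2850 CPM in WT and 1365 to 1810 CPM against 1828 to 2933 CPM in AD, and AD lay below WT at day 30. The part of cell makeup in the *Tsf1* values was not tested.

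Group means of *Tsf1* ran in the order AD day 3, WT day 3, AD day 10, WT day 10, WT day 20, AD day 20, WT day 30 and AD day 30, from 947 ± 352 to 4831 ± 1139 CPM (SD, n = 3). Neighbours in this order overlapped in their libraries except between WT day 3 and AD day 10 and between WT day 30 and AD day 30. AD against WT, the log2 fold change of *Tsf1* was −0.27 on day 3 and −0.17 on day 10, and 0.11 on day 20 and 0.45 on day 30. None passed the test, and the 95% interval at day 30 ran from −0.18 to 1.08 (edgeR FDR = 0.849). The change from day 3 to day 30 differed between the genotypes by 0.71 ± 0.45 (edgeR FDR = 1.0), with an interval of −0.18 to 1.60. The library labelled AD day 30 replicate 3, whose *w* level was in the WT range, held the highest *Tsf1* value of the series. Without it the *Tsf1* difference at day 30 was 0.25 (edgeR FDR = 0.994) and the difference in change was 0.49 (edgeR FDR = 1.0). With any 1 library left out the latter ran from 0.36 to 1.02, the lowest without WT day 3 replicate 3.

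The tested genes whose log2 CPM followed *Tsf1* most closely over the 24 libraries were *CG34054* (Pearson r = 0.975, Spearman rho = 0.939) and *CG17224* (r = 0.969, rho = 0.957). Over the 18 libraries of the second run the Pearson correlations were 0.969 and 0.952. The libraries share ages and processing runs, and the values are given as a description.

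*Mvl* encodes Malvolio, a divalent metal transporter of the NRAMP family that moves iron and manganese across membranes. In WT heads it was at 66.9, 66.1 and 62.5 CPM at day 3, and 82.0, 70.5 and 74.1 CPM on day 10. The day 20 libraries held 92.2, 83.3 and 85.3 CPM, and those of day 30 held 103, 103 and 108 CPM. The WT ages did not overlap from 1 time point to the next. In AD heads *Mvl* was at 68.3, 69.7 and 60.3 CPM at day 3, and 69.8, 68.6 and 77.4 CPM on day 10. The day 20 libraries held 109.7, 102.7 and 99.1 CPM, and those of day 30 held 91.9, 103 and 118 CPM. Here days 3 and 10 overlapped, as did days 20 and 30, and the later pair lay above the earlier pair.

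The *Mvl* changes were small and precise. Day 30 against day 3 gave a log2 fold change of 0.68 ± 0.10 in WT (edgeR FDR = 0.000241) and 0.66 ± 0.10 in AD (edgeR FDR = 0.000140). At day 20 the values were 0.41 ± 0.10 (edgeR FDR = 0.0166) and 0.65 ± 0.10 (edgeR FDR = 0.000310). They passed the FDR but not the limit on the fold change, so *Mvl* was not called. By the FDR alone 2 of 8 members, *Tsf1* and *Mvl*, were higher at day 30 in each genotype, where 4.52% of all genes were higher in WT and 10.2% in AD. The same pair was higher at day 20, beside 2.35% and 7.41%. In WT the day 20 pass of *Mvl* was lost without WT day 20 replicate 1 (0.39, edgeR FDR = 0.0730), in the second run alone (0.40, FDR = 0.0757), in a fit of only the groups compared (FDR = 0.162), with limma (FDR = 0.0520 and 0.0514 at the pseudocounts of 1 and 0.1), without WT day 3 replicate 1 and AD day 3 replicate 2 (FDR = 0.0544) and without the 4 libraries that stood apart (FDR = 0.361). In AD it was lost only in the fit of the groups compared (0.66, edgeR FDR = 0.0662). The second run gave ratios close to the first for *Mvl*, 1.31 against 1.38 in WT and 1.55 against 1.60 in AD, for day 20 over day 3. AD exceeded WT at day 20 in all 3 libraries, with a log2 fold change of 0.26 ± 0.10, but the test over all genes did not pass (edgeR FDR = 0.825). With earlier results in view, the genes most like *Mvl* were also looked up, and these were *PGRP-LB* (Pearson r = 0.949, Spearman rho = 0.915 over 24 libraries) and *CG8303* (r = 0.935, rho = 0.883).

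*Fer1HCH* and *Fer2LCH* encode the heavy chain homologue of ferritin, which oxidises iron on entry, and the light chain homologue, which helps to form the mineral core. Both were among the steadiest members, with a coefficient of variation over the 24 libraries of 10.2% for *Fer1HCH* and 13.7% for *Fer2LCH*, against 49.7% for *Tsf1*. *Fer1HCH* was at 726, 674 and 777 CPM in WT and 737, 674 and 778 CPM in AD heads at day 3. At day 30 it was at 799, 834 and 750.1 CPM in WT and 944, 894 and 849 CPM in AD heads. The AD libraries at day 30 all lay above those of AD day 3 and those of WT day 30. *Fer2LCH* was at 574, 559 and 656 CPM in WT and 549.9, 576 and 701 CPM in AD at day 3, and at 674, 702 and 652 CPM and 829, 733 and 719 CPM at day 30. Its AD libraries at day 30 were likewise above both groups.

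Neither ferritin gene was called in any comparison. From day 3 to day 30 *Fer1HCH* changed by 0.30 ± 0.12 in AD (edgeR FDR = 0.080) and by 0.13 ± 0.12 in WT (FDR = 0.524). For *Fer2LCH* the values were 0.32 ± 0.16 (edgeR FDR = 0.159) and 0.18 ± 0.16 (edgeR FDR = 0.509). The AD change of *Fer1HCH* passed the FDR, though not the fold limit, with DESeq2 (0.27, FDR = 0.0357) and with limma on log2(FPKM + 1) (0.42, FDR = 0.00270), and that of *Fer2LCH* with limma (0.45, FDR = 0.00300). At day 30 AD heads exceeded WT heads by 0.17 ± 0.12 for *Fer1HCH* (95% interval −0.06 to 0.40) and by 0.17 ± 0.16 for *Fer2LCH* (−0.14 to 0.48).

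The ratio of *Fer1HCH* to *Fer2LCH* counts was narrow, from 1.11 to 1.34 over the 24 libraries. It separated by processing run without overlap, at 1.26 to 1.34 in the first and 1.11 to 1.22 in the second run. In FPKM, which takes the lengths of each run into account, the ratio was 1.04 to 1.19 and the runs overlapped.

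*Tsf3* encodes another transferrin family protein. It was at 25.7, 16.4 and 18.4 CPM in WT and 24.9, 15.2 and 16.2 CPM in AD at day 3, and at 22.8, 20.9 and 28.4 CPM and 22.0, 21.0 and 37.0 CPM at day 30. The high value in each day 3 group was the library of the first run, and *Tsf3* had a median of 28.8 CPM in that run and 18.6 CPM in the second. Its stated length also differed, 2746 to 2935 bases in the first and 2377 in the second run, and its counts were fractional in the first run only. Over all libraries *Tsf3* changed from day 3 to day 30 by 0.25 ± 0.33 in WT (edgeR FDR = 0.687) and by 0.50 ± 0.33 in AD (edgeR FDR = 0.302). With the run as a covariate the changes were 0.53 (edgeR FDR = 0.0410) and 0.79 (edgeR FDR = 0.00175), under the fold limit. The second run alone gave 0.74 for *Tsf3* in AD (edgeR FDR = 0.0204). The AD day 30 value of 37.0 CPM was that of replicate 3, the library with *w* in the WT range. Without it the AD change of *Tsf3* was 0.18 over all libraries (edgeR FDR = 0.779) and 0.44 in the second run (edgeR FDR = 0.0673), and without all 4 libraries that stood apart it was 0.04 (edgeR FDR = 0.968).

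*MtnA*, the most abundant metallothionein, was high at every age and did not pass the test in any comparison. It was at 669.97, 514 and 713 CPM in WT and 611, 512 and 685 CPM in AD heads at day 3. At day 30 it was at 567, 644 and 477 CPM in WT and 437, 604 and 622 CPM in AD heads. The 4 groups overlapped. Its lowest and highest values over the 24 libraries, 437 and 803 CPM, differed 1.83-fold. The change from day 3 to day 30 was −0.17 ± 0.21 in WT and −0.12 ± 0.21 in AD, and AD against WT over the 4 days was −0.09 ± 0.11 with a 95% interval of −0.30 to 0.12.

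**Figure D2:**
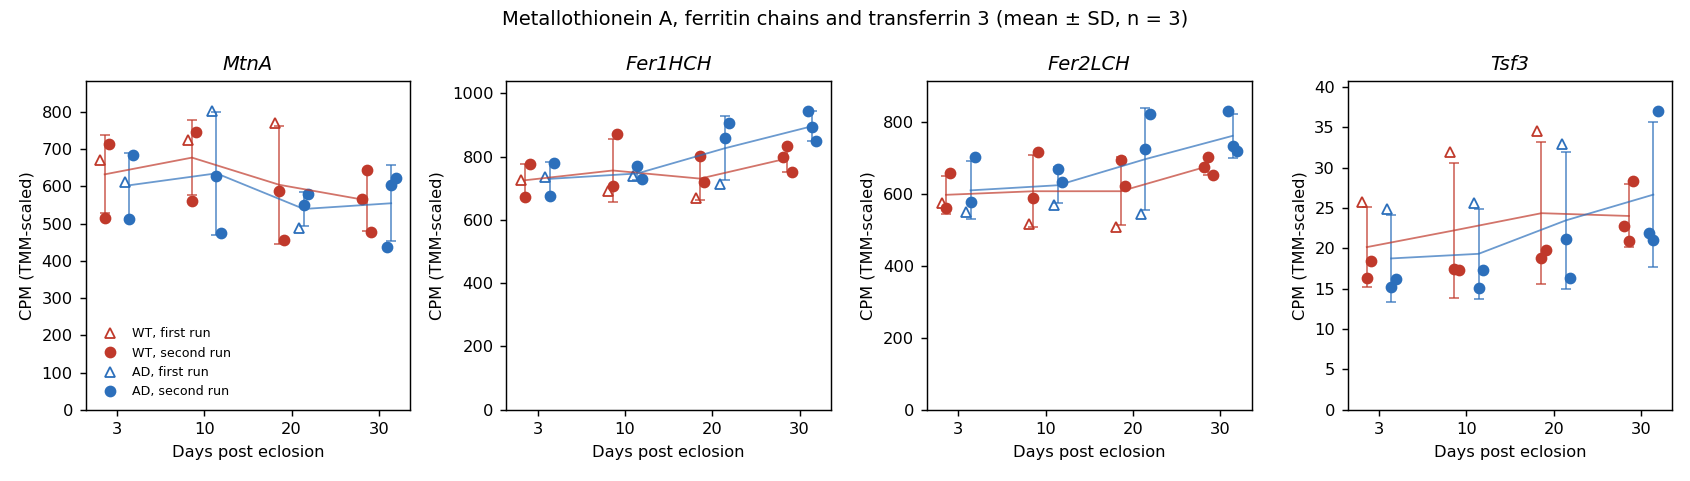
*MtnA*, *Fer1HCH*, *Fer2LCH* and *Tsf3* in CPM on linear axes from 0 against days post eclosion, with points, colours and bars as for *Tsf1* (n = 3, mean and SD). *MtnA* stays between 437 and 803 CPM; the open triangles of the first run lie low for *Fer2LCH* and high for *Tsf3*, whose run medians are 28.8 and 18.6 CPM.

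The remaining metallothioneins were counted in few reads. *MtnB* had 321 counts in all 24 libraries together, *MtnE* 381, *MtnD* 84 and *MtnC* 18. These genes are related in sequence, but their expected counts were whole numbers in every library and so show no reads divided between copies. *MtnA* had fractional counts in 6 libraries. Whether reads were assigned to the wrong copy was not tested. *MtnB* ranged from 0 to 1.75 CPM in WT and 0 to 2.07 CPM in AD, and the genotypes overlapped. Its median was 1.14 CPM in the first processing run and 0.366 CPM in the second, the only run with day 30. Its lowest group was AD day 10, where 2 of 3 libraries were at 0. The change from day 3 to day 30 was 0.72 ± 1.1 in WT (edgeR FDR = 0.735) and 1.71 ± 1.14 in AD (edgeR FDR = 0.309). With the run as a covariate the AD change of *MtnB* was 2.70 and was called (edgeR FDR = 0.0258). That fit called 1062 of 10479 genes in this comparison, against 805 in the main fit.

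*MtnE* was found in every library, from 3 to 24 counts in WT and 4 to 55 in AD. Its median was 0.390 CPM in the first processing run and 1.03 CPM in the second. At day 10 it was at 0.161, 0.198 and 0.989 CPM in WT and 0.902, 4.21 and 1.03 CPM in AD, and the groups overlapped. The log2 fold change there was 2.23 ± 1.01 (edgeR FDR = 1.0). The library with the highest value, AD day 10 replicate 2, held 55 of the counts, and without it the difference was 1.13. Without WT day 10 replicate 3 it was 3.46, and these were the lowest and highest *MtnE* values with 1 library left out. Over the 4 days the *MtnE* difference, AD against WT, was 0.91 ± 0.49 (edgeR FDR = 0.546), and 0.51 to 1.28 with 1 library left out, the lowest without AD day 20 replicate 3.

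*MtnD* had more counts in AD than in WT heads, at very low level. In WT heads its counts were 1, 0 and 1 on day 3, then 7, 0 and 0 on day 10, then 1, 2 and 4 on day 20, and 0 in all 3 libraries at day 30. In AD heads the counts were 3, 1 and 5 on day 3, then 11, 8 and 11 on day 10, then 3, 10 and 5 on day 20, and 6, 4 and 1 on day 30. Scaled to CPM, AD lay above WT without overlap at day 10, and the genotypes overlapped at days 3 and 20. A library at 0 allows up to 3 counts, so at day 30, where AD replicate 3 held 1 count, the genotypes were not separated at this depth. The sums were 68 counts in AD and 16 in WT. The mean level was 0.359 ± 0.252 CPM in AD and 0.0727 ± 0.108 CPM in WT (SD, n = 12 each).

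An exact two-sided permutation test of genotype within each age gave p = 0.000575 for the *MtnD* difference of 0.286 CPM, and 0.00115 after adjustment over the 2 members below the filter. The adjustment covered *MtnC* and *MtnD* only, with the p of *MtnC* fixed in advance, and left out the other members and contrasts. This test was chosen after the counts were seen. Its p-values, here and in the variants below, describe these libraries and are not independent support. Exchanging genotypes only within an age and a processing run gave p = 0.000116 (exact permutation). With no filter on low counts edgeR estimated 2.72 ± 0.69 over the 4 days, which did not pass over all genes (edgeR FDR = 0.0854). The *MtnD* difference stayed between 0.248 and 0.324 CPM when each library was left out in turn, with exact permutation p of 2.5e-05 to 0.00203.

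*MtnC* was listed in WT day 3 replicate 1, with 8 counts, and in AD day 3 replicate 2, with 10 counts, and in no other library. These are the libraries whose gut protease sums were 127 and 585 CPM, against at most 2.09 CPM elsewhere. The part of gut RNA in the *MtnC* counts was not tested. The 2 libraries were from different genotypes and the same age, and the genotype means of *MtnC* differed by 0.0288 CPM. With only these 2 libraries above 0, every exchange of labels gives a difference at least as large. The exact permutation p of 1.0 was thus fixed in advance, and no conclusion on genotype is drawn for *MtnC*.

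**Figure D3:**
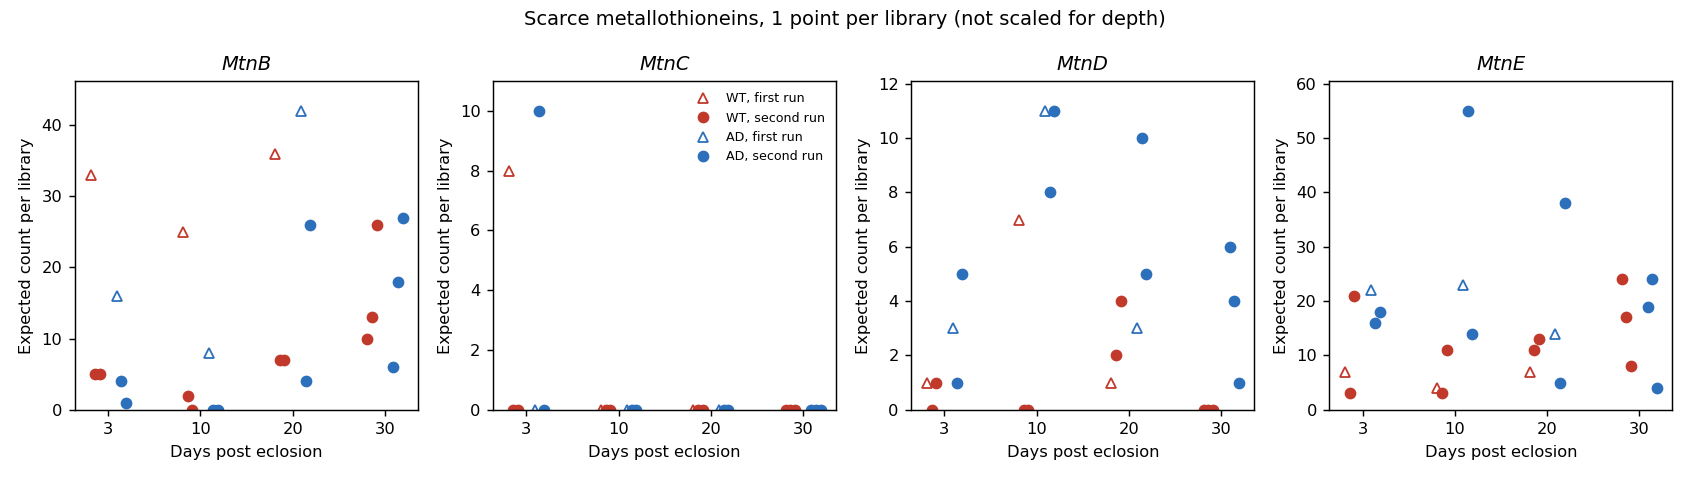
Expected counts per library of *MtnB*, *MtnC*, *MtnD* and *MtnE* on linear axes against days post eclosion, 1 point per library, not scaled for depth, with colours and symbols as for *Tsf1*. *MtnD* is above 0 in all 12 AD libraries and reaches 11 counts, while 6 of 12 WT libraries are at 0; *MtnC* is above 0 in 2 libraries only.

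Between AD and WT heads, edgeR called 0 of 8 tested members at each of the 4 ages and over their mean, and DESeq2 also called 0. The shares of all genes called were 0.0286% on day 3, 0.172% on day 10, 0.0954% on day 20, 0.0191% on day 30 and 0.315% over the mean. An unadjusted p under 0.05 was found for 1 member at day 10, *MtnE*, for 1 at day 20, *Mvl*, and for 0 at day 3, day 30 and over the mean. Of all 10479 genes, 372 had such a p at day 3, 320 at day 10, 464 at day 20, 824 at day 30 and 1142 over the mean. The members' median log2 fold change over the mean of the 4 days was 0.04, and that of all genes −0.01. For the difference between genotypes in the change with age, 0 of 8 members were called by edgeR or DESeq2 for day 30 against day 3, beside 0% of all genes, and 0 jointly over the 4 ages, beside 0.0191%. For both, 0 members had an unadjusted p under 0.05, beside 387 and 247 of all 10479 genes.

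Between day 3 and day 30, 7 of 8 members had estimates above 0 in WT, with a median log2 fold change of 0.47 beside −0.01 for all genes. In AD 6 of 8 were above 0, with a median of 0.41 beside 0.01. These comparisons describe the members; apart from *Tsf1* and, by the FDR alone, *Mvl*, no member passed.

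**Figure D4:**
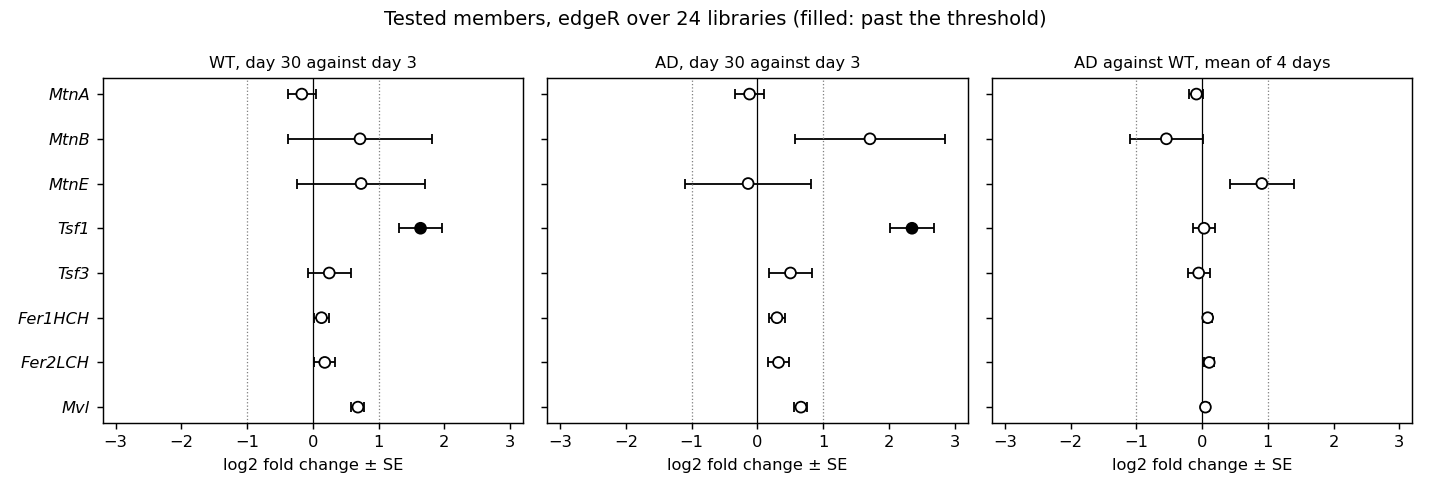
Log2 fold changes of the 8 tested members with their SE, from edgeR over 24 libraries, for day 30 against day 3 in WT (left) and AD (middle) and for AD against WT over the 4 days (right); dotted lines mark the fold limit of 1 and filled points passed the threshold. Only *Tsf1* is filled, at 1.64 in WT and 2.35 in AD, and *MtnB* and *MtnE* have the widest bars.

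Other genes of metal handling were taken from lists of 15 iron, 10 copper and 17 zinc genes, of which 37 of 42 were tested. Of these 37, 2 were called at day 30 against day 3, the same pair in both genotypes and both higher, beside 4.49% of all genes called in WT and 7.68% in AD. *Mco1*, a multicopper oxidase, rose by 1.59 ± 0.27 in WT (edgeR FDR = 0.000897) and 1.51 ± 0.27 in AD (edgeR FDR = 0.000602), and was also called at day 20 in each. *Zip89B*, a member of the ZIP family of zinc importers, rose by 1.31 ± 0.33 (edgeR FDR = 0.0160) and 1.42 ± 0.34 (edgeR FDR = 0.00532). The median of the 37 genes was −0.04 in WT and −0.07 in AD. No gene of these lists was called between AD and WT at any age by edgeR, beside 0.0191% to 0.172% of all genes. At each age 0 of the 37 had an unadjusted p under 0.05 there, as had 320 to 824 of all 10479 genes. By the FDR alone 6 of 37 genes were higher and 2 lower at day 30 in WT, beside 4.52% and 6.63% of all genes, and 5 were higher and 3 lower in AD, beside 10.2% and 11.7%.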

How the data were processed

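Poly(A) RNA-seq of pooled male heads gave 24 libraries, 3 for each of 8 groups of genotype and age. The authors filtered reads with SOAPnuke 1.5.2, mapped them with HISAT 2.0.4 to release 6 of the fly genome and quantified genes with RSEM; the deposited values are expected counts, not normalized, and FPKM, which the authors' software scaled to gene length and depth. Genes added to the annotation by the authors were left out of tests and totals. Genes at 0 are not listed in a library's table and were set to 0. Expected counts were rounded and tested with edgeR 4.0.16 (R 4.3.3; quasi-likelihood test, TMM scaling, filterByExpr) over all 24 libraries as 8 groups, with Benjamini-Hochberg adjustment over 10479 of 13700 genes in each of 13 contrasts. CPM used TMM-scaled library sizes. Intervals are the estimate and its SE on the normal scale. The threshold followed the study's methods. Members below the filter were compared by exact permutation, a test added after their counts were seen.

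The members, the other metal genes and the marker lists were chosen with earlier results of these data known. The named genes were the members, other metal genes called in at least 1 contrast, the 2 genes most correlated with each called member, and, to check labels, *w* and *Yp1*. The 2 genes most like *Mvl*, which was not called, and the metal genes of the closing section that passed the FDR alone lie outside this rule and were named after their values were seen. Of the 13700 genes, 13550 matched the annotation. Replicate pairs differed by far more than sampling noise (mean chi-square per gene of 9.20 to 410.0 over 24 pairs), so no library was merged.

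The fitting script was tested on simulated data with known changes. Alternatives were DESeq2 1.42.0, RLE scaling, other filters, a replicate block, the processing run as a covariate, the larger run alone, limma 3.58.1 on log2(FPKM + 1) and log2(FPKM + 0.1), fits of only the groups compared, the FDR without a fold limit, and each library left out in turn. Another 4 sets of libraries were left out after seeing the data.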

Additional observations from a re-analysis of the deposited data

How the results depend on the processing

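The *Tsf1* calls at day 20 and day 30 in AD held under every alternative run. The WT call at day 30 held under all but the removal of the 4 libraries that stand apart, which left 1 library in WT day 3 (*Tsf1* 1.15). In WT at day 20 the count of members called fell from 1 to 0 in the larger processing run, with or without AD day 30 replicate 3 (*Tsf1* 0.94 in both), with only the groups compared (1.43), without AD day 30 replicate 3 and WT day 3 replicate 2 (1.39), without WT day 3 replicate 1 and AD day 3 replicate 2 (1.22) and without all 4 (0.96). In AD at day 10 it fell from 1 to 0 in the larger run, with or without AD day 30 replicate 3 (0.83 in both), with only the groups compared (1.37), without WT day 3 replicate 1 and AD day 3 replicate 2 (1.28) and without all 4 (1.26). In WT at day 10 it rose from 0 to 1 with DESeq2 (*Tsf1* 1.26), the replicate block (1.24) and the run covariate (1.20). Calls among all 10479 genes rose there from 59 to 205, 130 and 187. They fell in WT at day 20 from 244 to 145 of 10288 in the larger run, and in AD at day 10 from 127 to 8. In AD at day 30 the run covariate called 2 members, adding *MtnB*, and 1062 of 10479 genes, against 805 in the main fit. The FDR without a fold limit gave 2 members in both genotypes at days 20 and 30, adding *Mvl*. With each library left out in turn the count was 0 to 1 in WT at days 10 and 20 and in AD at day 10. The cause of these shifts was not tested, except that fewer libraries enter some fits.

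No call reversed. Some estimates that were not called did: *MtnE* in AD from day 3 to day 30 (−0.14) was 0.043 with the block, 0.29 without AD day 30 replicate 3 and WT day 3 replicate 2, 0.12 in the larger run without AD day 30 replicate 3 and 0.26 without all 4, and in WT (0.73) −0.49 without all 4. *Tsf1* in AD against WT over the 4 days was −0.032 without AD day 30 replicate 3 and WT day 3 replicate 2, −0.0041 without WT day 3 replicate 1 and AD day 3 replicate 2 and −0.12 without all 4; *Tsf3* was 0.036 without WT day 3 replicate 1 and AD day 3 replicate 2. With each library left out in turn, *MtnB* in AD against WT over the 4 days ran from −1.57 to 0.042, *Tsf3* from −0.13 to 0.041 and *Tsf1* from −0.054 to 0.11; *Tsf1* ran from −0.58 to 0.085 at day 3, −0.49 to 0.16 at day 10 and −0.062 to 0.39 at day 20; *MtnE* in AD at day 30 ran from −0.65 to 0.29 and the *Mvl* difference in change from −0.14 to 0.030. These are the pairs of gene and comparison that the text gives, and that list was narrowed after sign changes had been counted over all 96 pairs. Over all 96, the sign changed in 82 of 1320 values under other alternatives and in 86 of 2304 with 1 library left out; 0 of these pairs were called and 0 had an unadjusted p under 0.05, and the largest estimate that changed sign was 1.66.

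Same-numbered WT and AD libraries deviated together in 8 of 12 pairs (correlations over 0.1), with a mean of 0.40 on day 3, 0.54 on day 10, 0.55 on day 20 and −0.04 on day 30, and 16 of 24 libraries correlated best with their own number. The labels name no shared origin, and the numbers were not used as pairs because that required a correlation over 0.1 in every pair. The replicate block changed the count of members called in WT at day 10 only, from 0 to 1. Depth limits the scarce metallothioneins most, since *MtnB*, *MtnC*, *MtnD* and *MtnE* rest on 18 to 381 counts in all libraries together.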

Other observations

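Several other metal genes passed the FDR without the fold limit between day 3 and day 30, and were named after their values were seen. *Zip48C*, of the ZIP family of zinc importers, was higher by 0.75 ± 0.13 in WT (edgeR FDR = 0.00138) and 0.88 ± 0.13 in AD (edgeR FDR = 0.000145). *ZnT86D*, of the zinc transporter family that moves zinc out of the cytosol, was higher by 0.44 ± 0.13 (edgeR FDR = 0.0320) and 0.73 ± 0.13 (edgeR FDR = 0.000540). *Cisd2*, which encodes an iron-sulfur protein, had log2 fold changes of −0.61 ± 0.13 in WT (edgeR FDR = 0.00631) and −0.75 ± 0.13 in AD (edgeR FDR = 0.000580). *Alas*, the first enzyme of heme synthesis, had log2 fold changes of −0.34 ± 0.10 (edgeR FDR = 0.0327) and −0.54 ± 0.10 (edgeR FDR = 0.000846). In 1 genotype each, *Nfs1* (0.35) and *IscU* (0.52), which build iron-sulfur clusters, passed the FDR in WT, and *MTF-1* (0.40), the factor that drives metallothionein transcription, and *fh* (−0.63), the fly frataxin, passed it in AD. The test of a difference between the genotypes in the change with age did not pass for any gene of the lists.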
